A study of Mus musculus with 8 samples.

Results

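A group of 9 transcription factors known from the neural crest and from the mesenchyme around the developing eye were followed through the cell types of the mouse iris: Sox10, Pax3, Tfap2a, Tfap2b, Tbx1, Foxc1, Foxc2, Glis1 and Foxd1. They were chosen by gene symbol, and 8 of the 9 had a row among the 22873 genes of the count tables, while Foxc2 was not analysed here. The data were single nucleus RNA sequencing (snRNAseq) counts of unique molecular identifiers (UMIs, each 1 captured RNA molecule) in 8 libraries. Each library came from 5 or 6 pooled irises of wild type, albino, female mice aged 6 to 8 weeks, so the spread between libraries is a spread between pools. Pupils were left untreated (3 libraries), were constricted with hourly drops of 5% pilocarpine, a muscarinic agonist (3 libraries), or were dilated with hourly drops of 5% phenylephrine, an alpha-adrenergic agonist, plus 1% cyclopentolate, a muscarinic antagonist (2 libraries). Irises of both treated groups were taken at 6.5 hours. By the paper's methods, constricted mice stayed in the light and dilated mice in the dark while drops were given. Lighting thus differed along with the drugs, and their effects cannot be told apart. The deposited annotation put every nucleus in 1 of 10 cell types: stroma 1, stroma 2, endothelial cells, leukocytes, iris pigment epithelium (PE), ciliary body epithelium (CBE), other ciliary body cells (CB), dilator muscle, sphincter 1 and sphincter 2.

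The neural crest is a migratory embryonic cell population that gives rise to melanocytes, peripheral glia and much of the connective tissue of the face and of the front of the eye. SOX10, PAX3 and TFAP2A act in crest cells and remain active in the melanocyte lineage, where they control genes for pigment synthesis. TFAP2B and FOXC1 act in the periocular mesenchyme, from which the corneal and iris stroma form.

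Libraries held 1274 to 7321 nuclei with a median of 2775 to 4697.5 UMIs per nucleus. Scrublet, a doublet caller, marked 0.0785% to 1.37% of nuclei per library as doublets. Untreated 1 and dilated 1 shared 63 cell barcodes, 4.26% of the smaller library, and no other pair shared more than 18. Levels are given as UMIs per 1000000 UMIs of a cell type in a library (CPM). Because the cell types had been assigned by clustering these same counts, levels in different cell types are given as a description, with no test between them. Neighbours in an order of levels are said to differ beyond their spread where the gap of the means exceeded the sum of both standard deviations.

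**Figure D1:**
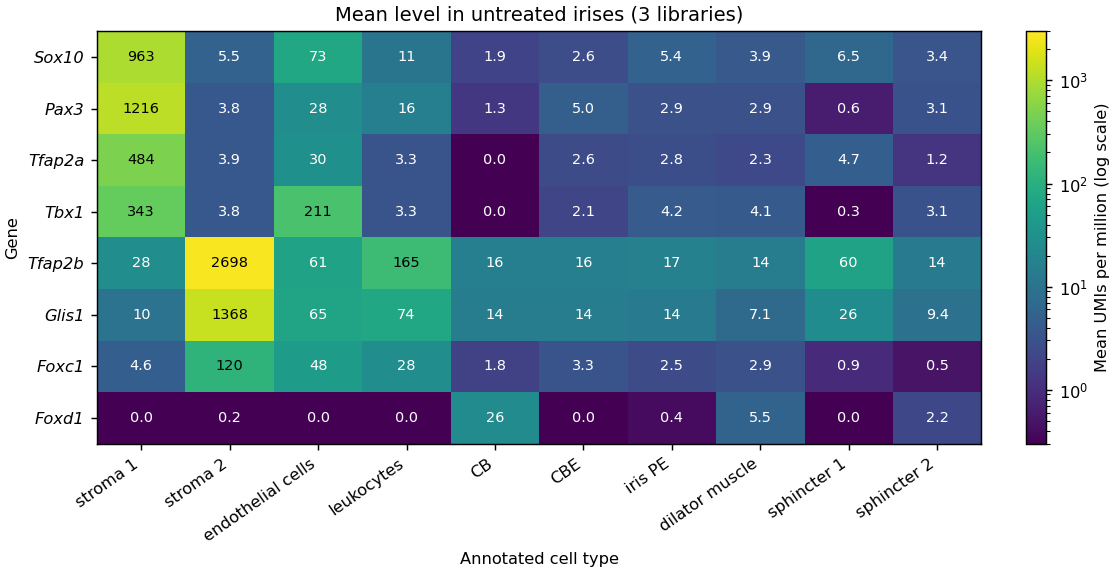
Mean level of the 8 measured factors (rows) in the 10 annotated cell types (columns) of the 3 untreated libraries, in UMIs per 1000000 on a log colour scale with 0.3 and below drawn alike. Sox10, Pax3 and Tfap2a are highest in stroma 1, Tfap2b, Glis1 and Foxc1 in stroma 2, Tbx1 in stroma 1 and endothelial cells, and Foxd1 in CB.

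The factors fell into a stroma 1 set, a stroma 2 set and Foxd1. Of all UMIs of a gene over the 8 libraries, stroma 1 nuclei held 94.2% for Sox10, 96.9% for Pax3, 95.1% for Tfap2a and 87.3% for Tbx1. Stroma 2 nuclei held 96.7% for Tfap2b, 95.1% for Glis1 and 87.5% for Foxc1. Stroma 1 counted 2315 nuclei over all libraries and stroma 2 6763. Foxd1 differed from all of these, with 64.4% of its 331 UMIs in dilator muscle and 27.5% in CB. Dilator muscle made up 33.8% of all nuclei and CB 3.76%. As a mean over the 8 libraries, Foxd1 had 29.6 CPM in CB and 5.04 in dilator muscle.

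Sox10 encodes a SoxE family factor and lies on chromosome 15 from 79154908 to 79165240 (mm10, minus strand). In stroma 1 it had 1033, 936 and 919 CPM in untreated replicates 1, 2 and 3, a mean of 963 ± 61.4 (SD, n = 3). The next cell type was the endothelial cells at 72.6 ± 64.0 CPM (SD, n = 3), and the gap exceeded the spread. That endothelial level came from 26 UMIs in 4 of 149 nuclei, and untreated 2 had none. Without the nuclei marked as doublets the ratio of stroma 1 to endothelial cells went from 13.3 to 26.0. In the other 8 cell types the mean was 1.93 to 10.9 CPM.

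Pax3, a paired box factor on chromosome 1 (78101267 to 78197134, minus strand), had 1272, 1185 and 1190 CPM in stroma 1 of the untreated libraries, a mean of 1216 ± 48.7 (SD, n = 3). The 3 libraries lay close together. Endothelial cells came next at 27.7 CPM, a ratio of 43.8 that was 97.0 without nuclei marked as doublets. Tfap2a, which encodes AP-2 alpha (chromosome 13, 40715302 to 40738376, minus strand), had 389, 523 and 538 CPM in stroma 1, a mean of 484 ± 82.0 (SD, n = 3). Untreated 1 was the low library for Tfap2a and the high one for Sox10 and Pax3. An antisense gene, Gm26688, overlaps Tfap2a and had 975 CPM in the same nuclei. The library chemistry keeps the strand of the RNA, but the strand setting of the counting is not given in the sources used here, so the split of reads between Tfap2a and Gm26688 is uncertain.

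Tbx1, a T-box factor of pharyngeal and vascular development (chromosome 16, 18580979 to 18590671, minus strand), had substantial levels in 2 cell types. Stroma 1 had 344, 351 and 334 CPM in the untreated libraries, a mean of 343 ± 8.77 (SD, n = 3). Endothelial cells had 136, 234 and 264 CPM, a mean of 211 ± 67.3 (SD, n = 3). The untreated means differed by more than the summed spread, with a ratio of 1.62, though untreated 1 had only 20 endothelial nuclei. Over all 8 libraries the means were 352 ± 62.4 CPM in stroma 1 and 191 ± 131 in endothelial cells (SD, n = 8), a gap within the spread. The remaining cell types were at 4.24 CPM or below in untreated irises.

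Tfap2b encodes AP-2 beta and lies on chromosome 1 from 19208914 to 19238576 (plus strand). It had 2366, 2797 and 2930 CPM in stroma 2 of the untreated libraries, a mean of 2698 ± 295 (SD, n = 3). Leukocytes followed at 165 ± 57.5 CPM (SD, n = 3), a ratio of 16.3 that was 63.4 without nuclei marked as doublets. Glis1, a zinc finger factor related to the GLI proteins (chromosome 4, 107434591 to 107635061, plus strand), had 1458, 1223 and 1422 CPM in stroma 2, a mean of 1368 ± 127 (SD, n = 3). The next level of Glis1 was 74.1 CPM in leukocytes. Both genes thus stood well beyond their spread in stroma 2.

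Foxc1, a forkhead factor whose loss disturbs development of the anterior segment, lies on chromosome 13 from 31806633 to 31812476 (plus strand) and has 1 exon. It had 118, 114 and 128 CPM in stroma 2, a mean of 120 ± 6.89 (SD, n = 3). Endothelial cells came next at 48.2 ± 21.9 CPM (SD, n = 3), from 17 UMIs in 16 of 149 nuclei, and the gap exceeded the spread. In leukocytes it had 27.5 CPM and in stroma 1 4.62 CPM.

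Foxd1, a forkhead factor of the optic cup and of kidney stroma (chromosome 13, 98354242 to 98359305, plus strand, 1 exon), was rare. CB had 8.67, 7.92 and 60.8 CPM in the untreated libraries, a mean of 25.8 ± 30.3 (SD, n = 3). Untreated 3 alone set that mean, and without it the ratio of CB to dilator muscle was 1.45 in place of 4.65. The gap between CB and dilator muscle was within the spread. Dilator muscle had 4.36, 7.04 and 5.22 CPM, in each case below CB of the same library, and the ratio over all libraries was 5.88. Stroma 1, with no UMI in the 3 untreated libraries, allowed a level of up to 0.846 CPM, the level that 3 counts over those libraries would give. Of the 183 dilator nuclei with a Foxd1 UMI over all libraries, 98.9% also had a UMI of Pax6, a factor of the optic cup epithelium, and 70.5% one of Otx2, against 97.1% and 67.7% of dilator nuclei without Foxd1.

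Genes differ in length, and nuclear reads cover introns, so levels between genes were set side by side only per kilobase, in the highest cell type. Per kilobase of gene span Sox10 had 93.2 CPM per kilobase, Tfap2b 90.9, Tbx1 35.4, Tfap2a 21.0, Foxc1 20.5, Pax3 12.7, Glis1 6.82 and Foxd1 5.09. Pax3 and Glis1 are the 2 longest of these genes, at 95.9 and 200.5 kilobases. The order depended on the length used. Per kilobase of exon Tfap2b had 426 CPM, Glis1 375, Sox10 316, Pax3 196, Tfap2a 98.6, Tbx1 97.6, Foxc1 20.5 and Foxd1 5.09.

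The start regions of the genes are shown because each stroma has 1 AP-2 gene among its leading factors, and AP-2 proteins bind the palindrome GCCNNNGGC. RefSeq promoter windows (GRCm38.p6, from 250 bases before to 50 bases after an annotated start) were at hand for Tfap2b, Glis1, Foxc1, Tfap2a, Tbx1 and Foxd1. Capitals mark each GCCNNNGGC, which reads the same on both strands.
Tfap2b, chr1:19211804-19212103, + strand: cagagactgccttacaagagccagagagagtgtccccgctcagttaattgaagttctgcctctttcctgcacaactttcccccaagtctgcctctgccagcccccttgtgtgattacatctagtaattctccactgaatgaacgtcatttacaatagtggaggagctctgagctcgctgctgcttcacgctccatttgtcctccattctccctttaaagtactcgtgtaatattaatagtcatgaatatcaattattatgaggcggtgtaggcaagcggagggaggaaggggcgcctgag
Glis1, chr4:107434469-107434768, + strand: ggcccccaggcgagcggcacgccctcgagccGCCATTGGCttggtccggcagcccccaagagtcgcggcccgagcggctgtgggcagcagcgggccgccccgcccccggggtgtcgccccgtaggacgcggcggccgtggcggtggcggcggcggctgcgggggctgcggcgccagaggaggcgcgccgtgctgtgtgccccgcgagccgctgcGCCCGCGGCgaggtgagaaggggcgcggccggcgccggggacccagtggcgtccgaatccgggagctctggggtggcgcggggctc
Foxc1, chr13:31806396-31806695, + strand: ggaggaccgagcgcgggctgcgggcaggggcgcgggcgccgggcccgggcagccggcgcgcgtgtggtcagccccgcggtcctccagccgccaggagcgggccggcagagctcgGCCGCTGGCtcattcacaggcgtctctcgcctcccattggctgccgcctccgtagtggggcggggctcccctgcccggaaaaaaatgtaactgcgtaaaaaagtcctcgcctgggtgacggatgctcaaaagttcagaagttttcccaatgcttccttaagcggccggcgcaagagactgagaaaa
Tbx1, chr16:18588850-18589149, - strand: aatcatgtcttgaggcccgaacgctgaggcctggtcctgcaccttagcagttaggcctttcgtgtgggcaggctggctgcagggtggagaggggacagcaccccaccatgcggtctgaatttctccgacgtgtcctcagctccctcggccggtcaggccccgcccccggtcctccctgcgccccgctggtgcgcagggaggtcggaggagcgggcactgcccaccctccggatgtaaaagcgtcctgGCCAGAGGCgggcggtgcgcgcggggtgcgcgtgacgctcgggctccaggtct
Tfap2a, chr13:40734871-40735170, - strand: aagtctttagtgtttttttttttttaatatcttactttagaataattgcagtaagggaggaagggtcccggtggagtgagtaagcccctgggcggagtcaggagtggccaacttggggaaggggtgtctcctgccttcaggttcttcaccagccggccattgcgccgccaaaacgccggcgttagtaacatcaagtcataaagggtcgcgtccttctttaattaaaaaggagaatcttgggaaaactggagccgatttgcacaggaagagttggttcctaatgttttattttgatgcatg
The Glis1 window held 2 copies of the palindrome, and the Foxc1 window and the downstream one of both Tbx1 windows held 1 each. The Tfap2b window held none, and neither did both Tfap2a windows (the first is shown), the other Tbx1 window and the Foxd1 window. Of all 32851 windows of this length, 16.6% held the palindrome. GC content was 81.3% for Glis1 and 67.3% for Foxc1 against a median of 52.7% over all windows. The letters ACAAAG, searched on both strands for SOX factors, and GTAAACA, for forkhead factors, were in none of these 8 windows and in 18.7% and 3.65% of all windows. GTCACGC, for PAX factors, was in 1 Tbx1 window and in 2.09% of all.

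The share of nuclei with at least 1 UMI followed the levels. In untreated stroma 1, 85.3% of 1292 nuclei had a Sox10 UMI (exact binomial 95% confidence interval 83.2% to 87.2%), 87.3% a Pax3 UMI, 66.5% a Tfap2a UMI and 50.3% a Tbx1 UMI. In untreated stroma 2, 95.3% of 3040 nuclei had a Tfap2b UMI (94.5% to 96.1%), 85.3% a Glis1 UMI and 24.5% a Foxc1 UMI. Median depths were 2691 UMIs in stroma 1 and 2425 in stroma 2. These intervals cover counting error only. Shares in the opposite stroma are set beside these. Whether UMIs there came from RNA of other cell types or from low expression was not tested. There, 1.32% of stroma 2 nuclei had a Sox10 UMI and 6.81% of stroma 1 nuclei a Tfap2b UMI. With each nucleus thinned to 1000 UMIs, 57.3% of stroma 1 nuclei kept a Sox10 UMI against 0.548% in stroma 2, and 85.6% of stroma 2 nuclei kept a Tfap2b UMI against 2.66% in stroma 1.

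Outside stroma 2, Tfap2b UMIs were found in a low and fairly even share of nuclei, from 5.32% in iris PE to 9.38% in sphincter 1. The shares in CB, CBE, dilator muscle and sphincter 2 (5.35% to 5.97%) lay within each other's intervals. In stroma 2, Glis1 made up 32.3% of the UMIs of Tfap2b and Glis1 together (31.8% to 32.8%). Dilator muscle had the like proportion, 32.4% (27.5% to 37.5%). In iris PE it was 44.6% (39.7% to 49.6%), from 182 Glis1 and 226 Tfap2b UMIs. Values in CBE (45.2%), CB (45.7%) and endothelial cells (48.3%) were near that of iris PE, from far fewer UMIs. Leukocytes, both sphincter types and stroma 1 had 29.3% to 34.8%. The intervals cover counting error of pooled UMIs only, and the spread of these proportions between libraries was not tested.

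**Figure D2:**
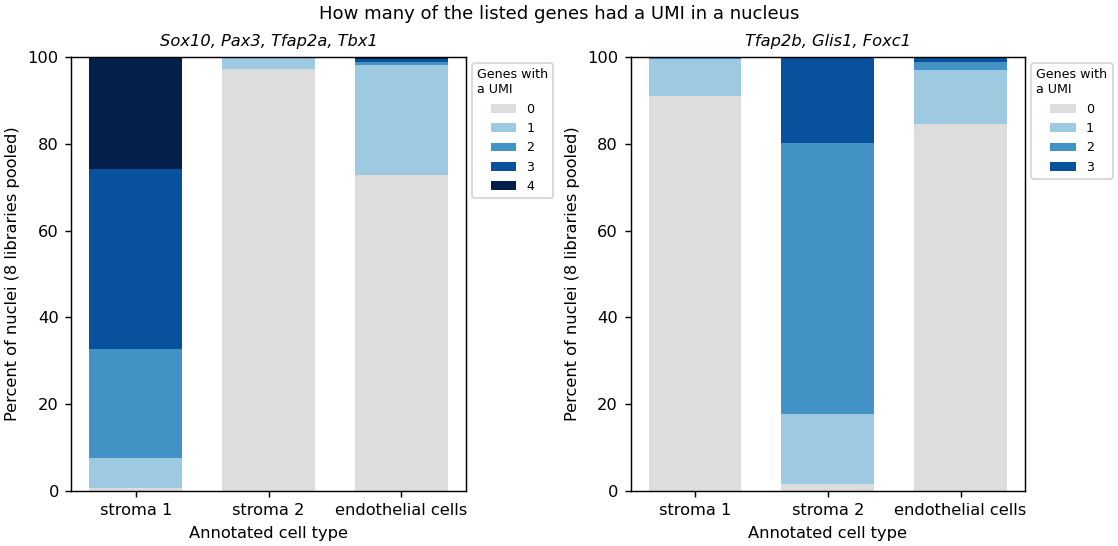
Percent of nuclei of stroma 1, stroma 2 and endothelial cells (8 libraries pooled) with a UMI of 0, 1, 2, 3 or 4 of the stroma 1 genes (left) and 0 to 3 of the stroma 2 genes (right). Most nuclei of each stroma carry 2 or more of their own set, and 1 or none of the other set.

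The sets were found together in single nuclei. Over the 8 libraries 25.7% of stroma 1 nuclei had UMIs of all 4 of Sox10, Pax3, Tfap2a and Tbx1, 41.7% of 3 of them, and 0.562% of none. In stroma 2, 19.8% of nuclei had UMIs of Tfap2b, Glis1 and Foxc1 together and 62.4% of 2 of them. A nucleus of stroma 1 with 2 of the stroma 2 genes was found 9 times in 2315, and no stroma 1 nucleus had all 3. In stroma 2, 3 of 6763 nuclei had 2 or more of the 4 stroma 1 genes.

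Within a stroma, detection of a factor was set against that of its partners. Of stroma 1 nuclei with a Sox10 UMI, 86.1% also had a Pax3 UMI, and of those without one 84.7% did. For Tfap2a the shares were 66.7% and 61.1%, with median depths of 2680.5 and 2570 UMIs in nuclei with and without Sox10. In stroma 2, 82.5% of nuclei with a Tfap2b UMI and 65.0% of those without had a Glis1 UMI, at median depths of 2455 and 2008 UMIs. Foxc1 was in 24.8% and 20.8% of the same nuclei. Nuclei with the first gene were the deeper ones in each of these comparisons, and the part of depth in these shares was not tested.

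The 2 AP-2 genes divided between the stromas. In stroma 1, 84 nuclei had UMIs of Tfap2a and Tfap2b, 5.52% of those with Tfap2a against 5.18% of those without. In stroma 2, 39 of 6763 nuclei had a Tfap2a UMI. Sox10 and Tfap2b UMIs met in 110 stroma 1 nuclei, 5.72% of those with Sox10 and 3.84% of those without, and none of the 110 was marked as a doublet. These shares lie near that of Tfap2b in the muscle and epithelial cell types.

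Endothelial nuclei with a Tbx1 UMI carried endothelial markers and not the stroma 1 set. All 66 of these nuclei, of 273 in 8 libraries, had a UMI of Flt1, which encodes a VEGF receptor, and 65.2% had one of Pecam1, against 95.7% and 60.4% of endothelial nuclei without Tbx1. One of the 66 had a Sox10 UMI, and that nucleus was marked as a doublet. In stroma 1, by contrast, 85.0% of nuclei with Tbx1 and 81.2% of those without had a Sox10 UMI. Of the 4 lymphatic endothelial markers, Flt4 was found in 44 of the 273 nuclei, 13.6% of those with Tbx1 and 16.9% of those without. Prox1 was found in 4 of the 273, and Lyve1 had no UMI in untreated endothelial nuclei. Pdpn had 42.5 CPM there, below its 177 CPM in iris PE. Foxc1 was found in 26 endothelial nuclei, 25 of them with Flt1 and 9 with Tbx1.

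The nuclei that carried the stroma 1 set also carried pigment cell genes. Of 14 melanocyte genes listed as downstream of Sox10 and Pax3, 12 had their highest untreated level in stroma 1, and the list summed to 38004 to 40080 CPM there against 1008 to 1087 in stroma 2. Dct, a melanin synthesis enzyme, had 20924 CPM, Oca2, a melanosome transporter, 3583, and Pmel, a melanosome fibril protein, 2723. Mitf, which encodes the melanocyte master regulator, had 3519, 1365 and 1650 CPM in stroma 1 of the untreated libraries. Untreated 1 stood apart for Mitf, and the other 7 libraries ranged from 1334 to 2434. A Mitf UMI was in 92.7% of stroma 1 nuclei with Sox10 and 89.5% of those without. Pigment genes were not limited to stroma 1: Dct had 7060 CPM in iris PE and 5220 in dilator muscle. Of nuclei without Sox10, 89.9% in dilator muscle and 87.4% in iris PE also had a Mitf UMI, against 30.4% in stroma 2. SOX10 is equally a glial factor. Of 11 measured Schwann cell and glia markers 6 were highest in stroma 1, among them Cdh19 at 684 and S100b at 299.5 CPM. Of the defining myelin and glial genes Ngfr and Gfap were at 0.21 CPM or below in untreated stroma 1, and Mbp was at 12.1 CPM.

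Other neural crest genes split between the stromas. Of 15 measured neural crest specifiers 6 were highest in stroma 1, among them Sox5 at 811, Sox6 at 708 and Sox9 at 37.0 CPM, and 3 were highest in stroma 2, with Snai1 at 32.4, Sox8 at 29.0 and Snai2 at 5.93 CPM. Sox5 was nearly as high in stroma 2, at 589 CPM. Of 20 measured periocular mesenchyme factors 15 were highest in stroma 2. Eya2, a phosphatase and transcriptional coactivator, had 1977 CPM there, Rarb, a retinoic acid receptor, 1389 (1350 in stroma 1, a gap within the spread), and Nr2f2, an orphan nuclear receptor, 954. The list summed to 8877 to 9585 CPM in stroma 2 and 3822 to 4325 in stroma 1. Eya1 at 700.1 and Alx1 at 49.3 CPM were the 2 genes of this list that were highest in stroma 1. All 6 fibroblast markers were highest in stroma 2, among them Dcn at 1926, Pdgfra at 906 and Lum at 443 CPM.

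Close relatives of the 8 factors were mostly scarce. The SoxE genes Sox8 and Sox9 reached 29.0 CPM in stroma 2 and 37.0 in stroma 1, Pax7 reached 2.24 in stroma 1, and the AP-2 genes Tfap2c, Tfap2d and Tfap2e reached 0.63, 16.2 and 4.03. Glis2 and Glis3 were instead highest in CBE, at 177 and 363 CPM. Foxd3, a crest forkhead gene, reached 10.6 CPM in stroma 1.

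The genes whose levels ran most like each factor were found by Pearson's r of log2(CPM + 10) over the 80 sums of 8 libraries and 10 cell types. These sums share libraries and cell types, so r describes the pattern over cell types and carries no p. Sox10 was nearest to Tfap2a (r = 0.981), Gm26688 (0.975) and Insc (0.970), and Tfap2a to Sox10, Cdh1 (0.973) and Gm26688 (0.971). Pax3 was nearest to 1700109G14Rik (0.979), Gm10067 (0.975) and Insc (0.968). Tfap2b was nearest to Gm43824 (0.944), Itgbl1 (0.933) and Gm21949 (0.931), and Glis1 to Tbx3os1 (0.929), Tfap2b (0.925) and Itgbl1 (0.925). Foxc1 was nearest to Itih5 (0.896) and Kank4 (0.869). Tbx1, with its second peak in endothelial cells, was nearest to Pdlim1 (0.892), Eogt (0.886) and Sh3tc2 (0.862). Foxd1 was nearest to Gucy2e (0.868), Tmem27 (0.846) and Acsl6 (0.840), all highest in CB.

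**Figure D3:**
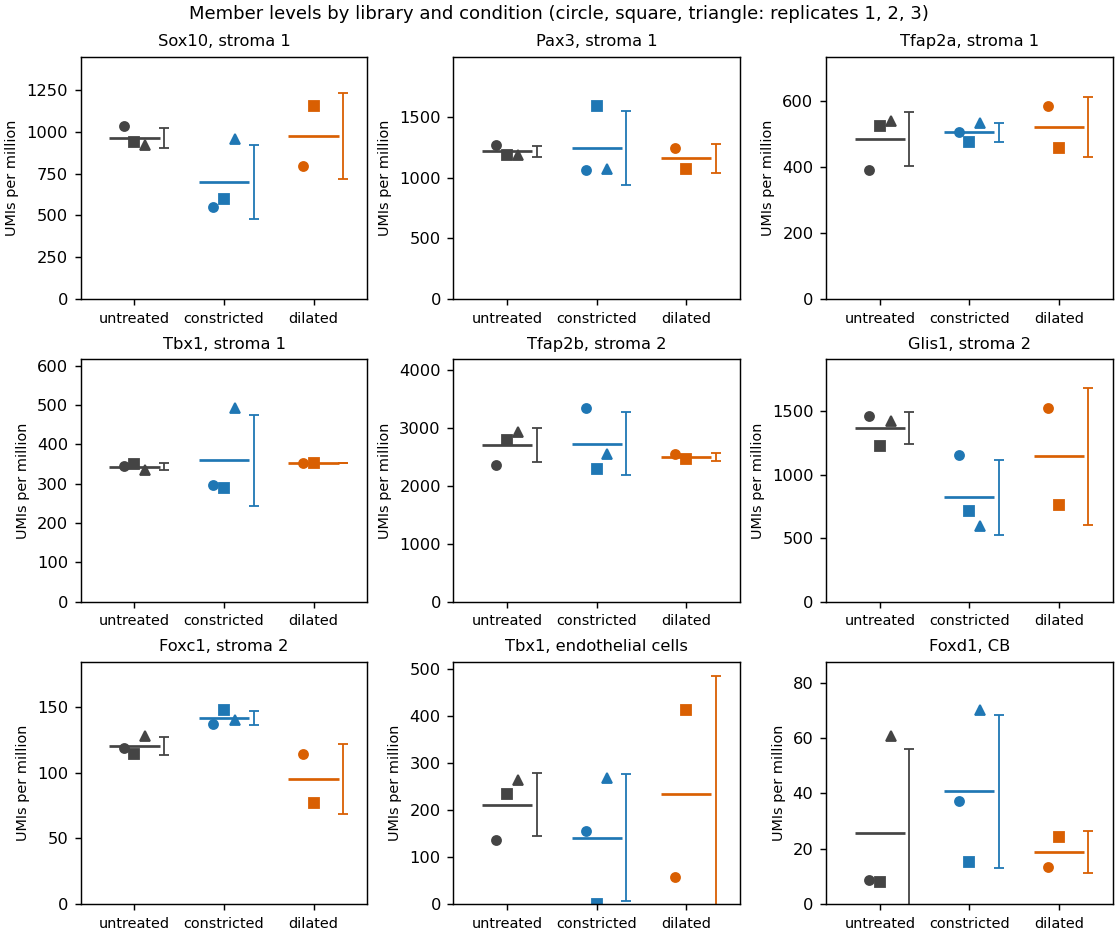
Level of each factor in the cell type where it was highest, and of Tbx1 also in endothelial cells, in UMIs per 1000000 by condition. Points are libraries, horizontal bars group means and vertical bars 1 SD; the constricted libraries lie below all untreated ones for Glis1 and above them for Foxc1.

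Each treated group was compared with the untreated one, and effects of drug, lighting and iris shape cannot be told apart in these comparisons. The UMIs of all nuclei of a cell type were added up within a library and tested with edgeR, and a gene was called where the adjusted p was under 0.05 and the absolute log2 fold change above 0.6. The 8 factors passed the filter on low counts in 25 combinations of factor and cell type. With dilation none of the 25 was called, against 3.34% of all genes tested over the 10 cell types, and 2 had an unadjusted p under 0.05. With constriction none was called, against 0.0118% of all genes tested, and 9 had an unadjusted p under 0.05. Of these, 7 with constriction and both with dilation were low counts outside the factor's highest cell type. Among all 15395 genes tested in dilator muscle, 4351 had such a p with dilation and 630 with constriction. Among the 12788 tested in stroma 2, 1490 and 676 did. DESeq2 called none in either comparison. In such sums over a cell type, fewer molecules per nucleus and fewer nuclei that express the gene cannot be told apart. Shares of nuclei with a UMI were not compared between conditions here.

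**Figure D4:**
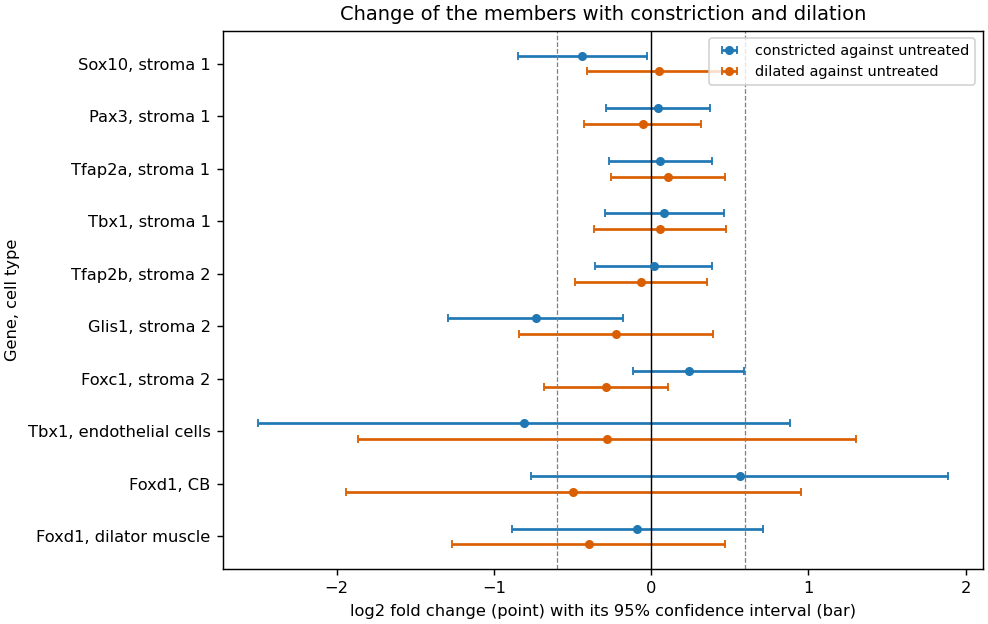
Log2 fold change (points) with its 95% confidence interval (bars) of each factor in its highest cell type, and of Tbx1 in endothelial cells and Foxd1 in dilator muscle, for constriction and dilation against untreated. Dashed lines mark a change of 0.6 in either direction; intervals in stroma are narrower than those in endothelial cells and CB.

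In stroma 1, Pax3 had 1241 and 1074 CPM with dilation and 1062, 1593 and 1071 with constriction. The log2 fold changes were -0.05 ± 0.18 (SE) with dilation and 0.04 ± 0.16 with constriction, and the groups overlapped. Tfap2a had 586 and 457 CPM with dilation and 506, 475 and 532 with constriction, for log2 fold changes of 0.11 ± 0.17 and 0.06 ± 0.16. Tbx1 had 352 and 353 CPM with dilation, just above all untreated libraries (15.3% of genes tested in stroma 1 were higher in every dilated library), and 297, 289 and 493 with constriction. For these 3 genes the 95% intervals of both log2 fold changes lay between -0.42 and 0.47, within the minimum change for a call.

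Sox10 had the wider range among treated libraries. It had 795 and 1157 CPM with dilation, on either side of the untreated libraries, and a log2 fold change of 0.05 ± 0.22 (SE). With constriction it had 552, 597 and 955 CPM, of which 2 lay below and 1 among the untreated libraries. The log2 fold change was -0.44 ± 0.20 with an unadjusted p of 0.0389 and an adjusted p of 0.976. The library numbers in the labels run in separate sequences, 2 of which hold untreated libraries. Within these, constricted 1 against untreated 1 gave -0.90 and constricted 3 against untreated 2 and 3 gave 0.04, so the sequences differed in direction.

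In stroma 2, Tfap2b had 2552 and 2453 CPM with dilation and 3343, 2295 and 2544 with constriction. The log2 fold changes were -0.07 ± 0.19 and 0.02 ± 0.17, and the groups overlapped. Foxc1 had 114 and 76.5 CPM with dilation, a log2 fold change of -0.29 ± 0.18. With constriction it had 137, 147 and 140 CPM, above every untreated library, a log2 fold change of 0.24 ± 0.16 with an adjusted p of 0.998. Of all genes tested in stroma 2, 5.29% were higher in every constricted than in every untreated library.

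Among the 7 factors that were highest in a stroma, Glis1 had the largest change in that highest cell type. With constriction stroma 2 had 1156, 712 and 593 CPM, below the lowest untreated library at 1223. The log2 fold change was -0.73 ± 0.26 (SE; 95% interval -1.29 to -0.18), with an unadjusted p of 0.0138 and an adjusted p of 0.754. Of all genes tested in stroma 2, 5.44% were lower in every constricted library. Without the filter on low counts the fold change was -0.75 ± 0.17 and Glis1 was called with an adjusted p of 0.00515, and over the other alternatives the fold change was -1.04 to -0.56 with no call. With dilation Glis1 had 1524 and 759 CPM, on either side of the untreated range, and a log2 fold change of -0.22 ± 0.29. Within the sequences of library numbers, the log2 ratio to untreated 1 was -0.34 for constricted 1 and 0.06 for dilated 1, and the log2 ratio to untreated 2 and 3 was -1.16 for constricted 3 and -0.80 for dilated 2.

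The rarer signals rested on few UMIs. Tbx1 in endothelial cells had 56.8 and 412 CPM with dilation and 155, 0 and 268 with constriction, from 0 to 20 UMIs per library. The log2 fold changes were -0.28 ± 0.74 and -0.81 ± 0.79 (SE). Foxd1 in CB had 13.4 and 24.1 CPM with dilation and 37.3, 15 and 70.0 with constriction, for changes of -0.50 ± 0.70 and 0.56 ± 0.64. The change with constriction was 0.03 without untreated 2 and 2.05 without untreated 3. In dilator muscle Foxd1 stayed between 3.55 and 8.05 CPM in all 8 libraries, with changes of -0.40 ± 0.40 for dilation and -0.09 ± 0.37 for constriction.

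**Figure D5:**
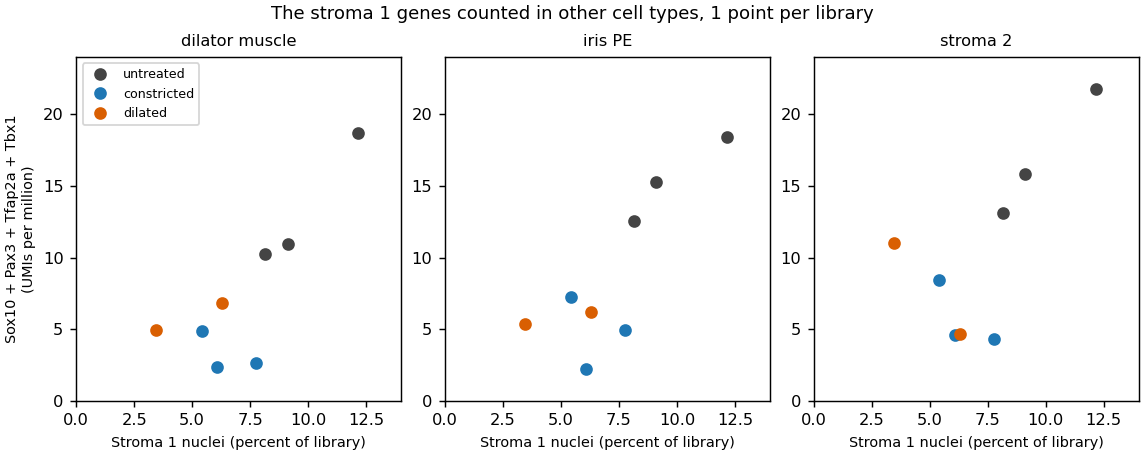
Summed level of Sox10, Pax3, Tfap2a and Tbx1 in dilator muscle, iris PE and stroma 2 (y axis, UMIs per 1000000) against the share of stroma 1 nuclei in the library (x axis, percent), 1 point per library. The 3 untreated libraries have both the highest shares, 8.14% to 12.2%, and the highest summed levels. The treated libraries do not show this order. Constricted 2, with their highest share (7.77%), has 2.66, 4.92 and 4.31 in dilator muscle, iris PE and stroma 2. Dilated 1, with the lowest share (3.44%), has 4.94, 5.37 and 11.0. These levels rest on 6, 6 and 4 UMIs in constricted 2 and on 50, 31 and 41 in dilated 1. The part of counting error in the order of the treated libraries was not tested.

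The low counts of the factors outside their highest cell type were also tested, and none was called. Among the 17 combinations outside the highest cell type, the log2 fold change was negative in 17 with constriction and in 14 with dilation. The median was -0.73 and -0.40, against 0.05 and -0.06 in the 8 combinations of the highest cell type. The filter on low counts could keep a combination through its untreated libraries alone, which favours negative changes. These signs and medians, and the examples below, are therefore not read as a treatment effect. In iris PE, Sox10 had 4.18, 5.77 and 6.40 CPM untreated, 1.91 and 1.37 with dilation and 1.97, 3.28 and 0.748 with constriction. The changes were -1.71 ± 0.51 with dilation (adjusted p = 0.212) and -1.68 ± 0.50 with constriction (adjusted p = 0.911). All treated libraries lay below all untreated ones, as for 15.5% of genes tested in iris PE with dilation and 5.13% with constriction. The share of stroma 1 nuclei was also lower in every treated library, 3.44% to 7.77% against 8.14% to 12.2%, and its part in these counts was not tested. Tbx1 in dilator muscle had 8.10, 2.53 and 1.74 CPM untreated and 0.987 and 1.20 with dilation, a change of -1.43 ± 0.70 (adjusted p = 0.208). All dilated libraries lay below all untreated ones, as for 33.9% of genes tested in dilator muscle. With the sequence of library numbers as a block it was called at -1.83 ± 0.57 (adjusted p = 0.0334). These counts rest on 6 to 18 UMIs per library.

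Related crest and mesenchyme genes gave the context for these values. In dilator muscle, where 13.3% of all genes tested were called, 4 of 7 tested neural crest specifiers rose and none fell. Of 15 measured specifiers only these 7 passed the filter on low counts. It could keep a gene through its dilated libraries alone, as may hold for Sox8 and Myc. The 4 rises are therefore not read as a trend of the list. Sox5 had 24.3, 15.5 and 14.7 CPM untreated and 61.9 and 43.7 with dilation, a log2 fold change of 1.80 ± 0.32 (SE; adjusted p = 0.00275). Sox8 had 1.25, 1.69 and 1.11 CPM untreated and 3.45 and 4.81 with dilation, a change of 1.71 ± 0.46 (adjusted p = 0.0256). Myc, the proliferation factor, had 1, 1 and 0 UMIs in the untreated libraries and 33 and 19 with dilation. Its fitted log2 fold change of 4.61 ± 0.80 (adjusted p = 0.00219) rests on those few untreated UMIs and depends on the prior count. As a ratio of summed CPM it was 25.8 (exact conditional 95% interval 6.8 to 219), an interval for counting error only. Id3, an inhibitor of basic helix-loop-helix factors, was the fourth.

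Sox8 also rose in iris PE with dilation, where 0.595% of genes were called. It had 1.67, 0.796 and 1.42 CPM untreated and 10.9 and 10.3 with dilation, a log2 fold change of 3.14 ± 0.44 (adjusted p = 0.00657). Here and in dilator muscle, the filter on low counts may have kept Sox8 through its dilated libraries alone. Of 5 tested family members of the 8 factors, Sox8 and Glis3 rose in dilator muscle, Glis3 by 0.83 ± 0.22 (adjusted p = 0.0265). Among 13 tested periocular mesenchyme factors in dilator muscle Prrx1 rose by 0.67 ± 0.20, while Eya2 (-0.87 ± 0.21) and Rarg (-0.79 ± 0.18) fell, with adjusted p of 0.0413, 0.015 and 0.0118. In sphincter 1, where 1.95% of genes were called, Nr2f1 fell from 96.8, 87.7 and 100.2 CPM to 21.8 and 43.8, a change of -1.46 ± 0.33 (adjusted p = 0.0195).

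In stroma 2, where 1.73% of genes were called with dilation, 1 of 15 tested periocular mesenchyme factors was called. Zeb2, a zinc finger repressor, had 1874, 2003 and 2044 CPM untreated and 1006 and 796 with dilation, a log2 fold change of -1.09 ± 0.19 (adjusted p = 0.014). Both dilated libraries lay below all untreated ones, as for 16.1% of genes tested in stroma 2. Constricted libraries had 1424, 1712 and 1260 CPM, also below the untreated ones, with no call. The list's median change was -0.43, against 0.01 over all genes tested in stroma 2. The endothelial markers Cldn5 and Erg rose in stroma 2 nuclei, by 2.20 ± 0.34 and 2.85 ± 0.56 (adjusted p = 0.00889 and 0.0234). Erg had 6.04, 7.51 and 4.25 CPM untreated and 58.5 and 23.4 with dilation. Constricted libraries had 18.5, 18.3 and 1.97 CPM of Erg. The call was lost in 4 of 15 alternatives for Erg and in 2 for Cldn5. The 6 endothelial markers summed to 204 to 305 CPM untreated and 649 to 819 with dilation. Their part in the stroma 2 values was not tested.

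In stroma 1, where 1.17% of genes were called with dilation, none of 5 tested neural crest specifiers, 9 periocular factors and 3 family members was called. Of the 14 melanocyte genes, 1 was called. Slc45a2, a melanosome transporter, had 343, 302 and 305 CPM untreated and 529 and 559 with dilation, a log2 fold change of 0.80 ± 0.17 (adjusted p = 0.0256). The median change of the list was 0.02, against 0.01 over all genes tested in stroma 1. Mitf changed by 0.00 ± 0.29 with dilation and -0.27 ± 0.26 with constriction. Cspg4, a pericyte marker that oligodendrocyte precursors also express, rose by 1.61 ± 0.38 (adjusted p = 0.0446) from 8.63 to 17.9 CPM to 45.9 and 30.0. Constricted libraries had 30.9, 12.9 and 19.3 CPM of Cspg4, so constricted 1 was level with a dilated library. The call was lost in 6 of 15 alternatives.

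Pigment genes were also called outside the stroma. In dilator muscle Tyr, the rate-limiting melanin enzyme, had 1170, 1189 and 1284 CPM untreated and 299 and 253 with dilation, a log2 fold change of -1.95 ± 0.22 (adjusted p = 0.000132). It fell as well in iris PE (-1.14 ± 0.18, adjusted p = 0.0154) and in sphincter 2 (-2.36 ± 0.42, adjusted p = 0.000821), where 2.87% of genes were called. In stroma 1 Tyr was not called, with a change of 0.08 ± 0.16, and the difference between the cell types was not tested. Gpr143, a melanosome receptor, fell in dilator muscle by 1.31 on the log2 scale (adjusted p = 0.000759), and Dct and Oca2 rose there, Dct by 0.76 ± 0.15 (adjusted p = 0.00547). Genes of the cell type marker lists were called with dilation too. In dilator muscle Pdpn rose by 1.55 ± 0.19, and Otx2 rose. The fibroblast marker Dcn (-0.80 ± 0.18), the pericyte markers Kcnj8 (-2.13 ± 0.60) and Abcc9 (-1.77 ± 0.38) and the muscle genes Nos1 and Ttn fell there. Several of these levels were low. Untreated Ttn had 11.8, 8.30 and 8.38 CPM in dilator muscle against 2038, 1325 and 1687 in sphincter 1, where it also fell (-1.84 ± 0.27). Untreated dilator muscle had 61.7, 43.2 and 54.1 CPM of Dcn, far below stroma 2, and 4, 18 and 22 UMIs of Kcnj8. The part of RNA from other cell types in these values was not tested. Mrc1 fell (-1.16 ± 0.28) in leukocytes, where 1.32% of genes were called. Of the 28 calls of list genes named by rule, 7 held in every alternative that could be fitted, namely Sox5, Myc, Pdpn, Gpr143 and Tyr in dilator muscle, Ttn in sphincter 1 and Tyr in sphincter 2. The other 21 were lost in 1 to 7 of them. No gene of the 12 lists was called with constriction in any cell type.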

How the data were processed

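The authors isolated nuclei from pooled irises, made 10x Genomics 3' v3 libraries, aligned reads with Cell Ranger 3.1.0 to a pre-mRNA version of mm10 and clustered nuclei with Seurat (tools credited to the paper and the submitters' processing notes). They deposited, for each of 8 libraries, UMI counts per gene and nucleus with an assigned cell type, and the percent of mitochondrial UMIs per nucleus, which was read but not used. The depth was 5189437 to 25136427 UMIs per library, and the UMIs of a nucleus differed from the deposited total in some nuclei of each library. The study handled its irises in several batches without saying here which library belonged to which, so library numbers were the only proxy.

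UMI counts of all nuclei of a cell type were added up within each library, scaled by TMM, filtered with filterByExpr and tested with edgeR 4.0.16 (quasi-likelihood test, all 3 conditions in the fit, R 4.3.3), with Benjamini-Hochberg adjustment over all genes tested in a cell type. P-values measure the spread between libraries. DESeq2 1.42.0, no filter, each library left out, blocks, doublets removed (Scrublet in scanpy 1.11.5) and shared barcodes removed (chosen after seeing the data) were the alternatives. Thinning drew 1000 or 500 UMIs from each nucleus with at least that many. The code was tested on simulated data. Gene positions came from GENCODE vM21 on GRCm38, the same assembly as mm10, and promoter windows from RefSeq. The factors and the gene lists were chosen with earlier results of these data known. Named genes were all factors, for each the 3 genes of most similar level with at least 20 CPM in a cell type, Mitf, of each list up to 3 called genes per cell type by size of change, and up to 3 per list that were highest in a stroma. Some pairs of genes counted in single nuclei (Tbx1 with Flt1, Pecam1 or Sox10, Foxd1 with Otx2 or Pax6, Sox10 with Mitf and the like) were chosen after values were seen, as was Id3. Some genes that the rule names are not reported here.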

Additional observations from a re-analysis of the deposited data

Results flagged for a closer look

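In 2 cases every treated library of a factor moved one way in 1 cell type and the opposite way in another. With dilation, Tbx1 was higher in every dilated than in every untreated library of stroma 1 (log2 fold change 0.06) and lower in dilator muscle (-1.43), a gap of 1.49; 15.3% of genes tested in stroma 1 were higher and 33.9% in dilator muscle lower in every dilated library. With constriction, Foxc1 was higher in every constricted library of stroma 2 (0.24) and lower in dilator muscle (-0.37), a gap of 0.61; the shares of genes were 5.29% and 4.82%. The difference between the cell types was not tested in either case, and none of these values was called. Groups of 2 and 3 libraries are too small for a test of single outlying libraries.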

How the results depend on the processing

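No factor was called in either comparison with DESeq2, without doublets, without shared barcodes, with only the 2 conditions in the fit, with no minimum fold change, or with any library left out (0 to 0 calls). The exceptions are 1 call with dilation under the sequence of library numbers as a block (Tbx1 in dilator muscle), 1 call with dilation under the replicate number as a block, again Tbx1 in dilator muscle (-1.91 ± 0.64, adjusted p = 0.04999), and 1 call with constriction without the filter on low counts (Glis1 in stroma 2); the cause was not tested. Not every same-numbered pair had deviations from the group means that correlated above 0.1, so the replicate numbers were not taken as pairs: over 4 cell types the correlations were 0.114 to 0.446 among the replicates 1, 0.105 to 0.283 for constricted 3 with untreated 3, 0.135 to 0.209 for dilated 2 with untreated 2 and -0.033 to -0.00607 for constricted 2 with its same-numbered libraries. Libraries of different conditions within 1 sequence of library numbers all correlated positively over these cell types, at 0.105 to 0.453. Pairs from different sequences gave -0.453 to 0.0869. Deviations in a group of 2 libraries mirror each other, so these values are not independent. The main fit had no term for the sequence, which entered only as an alternative. Some uncalled changes turned sign. In the main fit Pax3 in stroma 1 with constriction was 0.04 and Foxd1 in CB with dilation -0.50. With the block on library numbers these were -0.19 and 0.039, and with the replicate block the latter was 0.35. Leaving out 1 library gave ranges of -0.31 to 0.35 for Sox10 with dilation, -0.10 to 0.00032 for Pax3 with dilation, -0.19 to 0.16 for Pax3 with constriction, -0.74 to -0.27 for Sox10 with constriction, -0.56 to -0.08 for Foxc1 with dilation, 0.03 to 2.05 for Foxd1 with constriction, -0.042 to 0.23 for Tfap2a with dilation, -0.087 to 0.15 for Tfap2a with constriction, -0.23 to 0.23 for Tbx1 with constriction, -0.18 to 0.0024 for Tfap2b with dilation, -0.13 to 0.11 for Tfap2b with constriction, -0.75 to 0.16 for Glis1 with dilation and -1.03 to 0.99 for Foxd1 with dilation, each in its highest cell type. Where only cell types with at least 50 nuclei in each untreated library were kept, which drops endothelial cells, leukocytes and sphincter 2, the log2 ratio of the highest to the next cell type was 7.22 for Sox10, 7.94 for Pax3, 6.68 for Tfap2a, 5.50 for Tfap2b, 6.34 for Tbx1, 4.70 for Foxc1 and 5.71 for Glis1, and for Tfap2b it was 5.99 without doublets. The highest cell type was the same in every alternative. Without untreated 2 the Tfap2a ratio was 3.36 in place of 4.00, and without untreated 3 the ratio was 4.34 for Sox10 (3.73 with it), 4.96 for Glis1 (4.21) and 0.54 for Foxd1 (2.22). The share of nuclei with a UMI fell with depth: thinned to 1000 and to 500 UMIs it was 57.3% and 36.3% for Sox10, 65.3% and 41.4% for Pax3, 38.0% and 22.1% for Tfap2a, 28.9% and 14.6% for Tbx1, 85.6% and 68.4% for Tfap2b, 65.7% and 43.2% for Glis1, and 11.2% and 6.12% for Foxc1. A different change in another cell type was not tested, since no factor was called. Tbx1 in dilator muscle and Foxd1 in CB rested on 0 to 24 UMIs per library, which limits what their changes can show.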
